A study of Mus musculus with 18 samples.

Results

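Interferon-stimulated genes are switched on when a cell binds interferon, and the genes of class I antigen presentation display peptides from inside the cell to T cells. The 38 genes described here were picked by a list of symbols from the 52636 genes of the count table, to ask whether eyes given AAV still carried an interferon response at day 14. The list holds 4 sensors of foreign RNA and DNA (Ddx58, Ifih1, Dhx58, Zbp1), 4 genes of interferon signal transduction (Stat2, Irf7, Irf9, Usp18) and 17 antiviral effectors (Ifit1, Ifit2, Ifit3, Isg15, Rsad2, Oas1a, Oas2, Oasl2, Mx1, Mx2, Bst2, Ifi44, Ifi27l2a, Xaf1, Parp14, Trim30a, Cmpk2). It also holds the chemokine gene Cxcl10, 6 interferon-inducible GTPases (Gbp2, Gbp3, Gbp7, Igtp, Iigp1, Irgm1) and 6 antigen presentation genes (Psmb8, Psmb9, Tap1, B2m, H2-K1, H2-D1). Sensors of viral nucleic acid lead a cell to secrete type I interferon, which acts through its receptor, Jak kinases and a complex that holds Stat2 and Irf9 on a DNA element in front of its target genes. Interferon gamma acts through a receptor of its own and induces mainly the GTPases and the antigen presentation genes. Class I molecules are built from a heavy chain, such as H2-K1 or H2-D1, and B2m, and are loaded with peptides cut by the immunoproteasome and moved by Tap1.

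The libraries were made from the RPE layer of C57BL/6 mice at postnatal day 14, in 6 groups of 3 libraries. One group was uninjected, and the other groups were given AAV8 under the retina on the day of birth. Their vectors encoded GFP, nSREBP2 (the nuclear form of SREBP2), a control short hairpin (ctrl sh) or a short hairpin against Lrp2 (Lrp2 sh1 or Lrp2 sh2). The libraries titled Laczsh are read here as the ctrl sh group. The hairpins were in a vector marked by mCherry in place of GFP. The Best1 promoter drove the vectors, so that they act in RPE cells only as far as that promoter is selective. Both eyes of a mouse were pooled in a library, the retina and optic nerve were taken away and the rest was dissociated with papain, so cells of the layers around the RPE can be present. No group was injected without a vector, and the injection cannot be told from the AAV it carried.

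Total counts were 9305732, 10232105 and 8921885 in the uninjected libraries, 11159247, 11092959 and 13231479 after GFP and 11340405, 11356392 and 11439251 after nSREBP2. They were 13696934, 12967362 and 11814113 after ctrl sh, 12645946, 12655566 and 12188538 after Lrp2 sh1 and 12251001, 12101954 and 12148968 after Lrp2 sh2. Levels are given as CPM (counts scaled to a common library size) after TMM scaling, at which 3 counts were worth 0.218 to 0.323 CPM. The lowest count of any member in any library was 11, for Oas1a. H2-K1 and H2-D1 share stretches with each other and with other H2 genes, and the Gbp, Oas and Ifit genes with their own relatives, so their counts are uncertain in how reads were shared out. Tap1 with Psmb9, Psmb8 with Gm20496, Cxcl10 with Art3, Dhx58 with Dhx58os, Usp18 with Gm44148, Irf7 with Phrf1 and Gbp2 with Mir6381 overlap on opposite strands, and Gbp7, Igtp, Irf9 and Parp14 overlap a neighbour on the same strand. Because the strand setting of the counting was not given, the counts of these genes are uncertain as well.

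RPE markers were present throughout, 10 of 10 with a count and Pmel the most abundant. Their summed level was 6497, 11548 and 13664 CPM uninjected, 5238, 5598 and 5602 after GFP, 6273, 5572 and 4723 after nSREBP2, 8414, 6225 and 6356 after ctrl sh, 5541, 5813 and 5855 after Lrp2 sh1, and 4700, 4148 and 4126 after Lrp2 sh2. Rpe65, an enzyme of retinoid metabolism, was at 371, 955 and 1115 CPM uninjected, 2.29, 1.06 and 1.58 after GFP, 3.76, 2.44 and 3.2 after nSREBP2, 97.8, 2.58 and 1.77 after ctrl sh, 3.56, 44.1 and 5.19 after Lrp2 sh1, and 3.51, 5.45 and 15.7 after Lrp2 sh2. Its level in every injected library lay below that in every uninjected one. Of the 10 RPE markers, 6 were called lower than uninjected after GFP, after nSREBP2, after Lrp2 sh1 and after Lrp2 sh2, and 0 after ctrl sh, where Rpe65 differed by -4.59 (SE 1.26, adjusted P 0.0645) and library 1 kept 97.8 CPM. In Lrp2 sh2, 3 were called lower than in ctrl sh (median log2 fold change -1.44) and 5 lower than in Lrp2 sh1 (median -1.21). In nSREBP2 versus GFP 2 were called lower and 1 higher, and in Lrp2 sh1 versus ctrl sh 0 were called. Of all genes, 1.41% were called either way after GFP, 10.6% after nSREBP2 and 2.39% after ctrl sh, each versus uninjected. After Lrp2 sh1 it was 6.58% and after Lrp2 sh2 8.04%. The share was 4.76% in Lrp2 sh2 versus ctrl sh and 5.13% in Lrp2 sh2 versus Lrp2 sh1. In nSREBP2 versus GFP it was 6.67%, and in Lrp2 sh1 versus ctrl sh 0.994%. The targeted gene Lrp2 was at 55.3, 139 and 149 CPM uninjected, 175, 160.3 and 87.6 after GFP, 38.1, 29.8 and 25.3 after nSREBP2, 167, 87.7 and 100.2 after ctrl sh, 29.7, 42.8 and 38.2 after Lrp2 sh1, and 37.8, 34.5 and 43.9 after Lrp2 sh2. Srebf2, whose encoded protein's nuclear form the nSREBP2 vector carries, was at 87.2, 114 and 94.9 CPM uninjected, 82.9, 113 and 106 after GFP, 236, 207 and 209 after nSREBP2, 122, 114 and 108 after ctrl sh, 102, 119.7 and 116 after Lrp2 sh1, and 108, 102 and 105 after Lrp2 sh2. The nSREBP2 libraries had the most. Uninjected 1 stood apart by its lower Rpe65 and Lrp2. Lrp2 sh2 1 stood apart by macrophage markers and H2-K1 above those of the other libraries of its group. nSREBP2 3 stood apart by Cxcl10, Gbp2 and Cxcl9, and calls of members that rest on it or on Lrp2 sh2 1 are given with and without it.

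Transcripts of the Y chromosome were counted 2770, 2806 and 2901 times in the nSREBP2 libraries, 2958 times in uninjected 3 and 3630 and 3625 times in Lrp2 sh2 2 and 3, while the other libraries had at most 10. All nSREBP2 mice were therefore male and all GFP and ctrl sh mice female, so sex and group cannot be told apart in nSREBP2 versus GFP. Where a sex term was added below, all 18 libraries were fitted together. Only the uninjected and Lrp2 sh2 groups held both sexes, so the term rests on these groups. A result that changed with the term can owe this to the wider fit as well as to the term.

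All 38 members were detected and tested in every comparison. Summed over the members, the level was 1136, 1078 and 1289 CPM uninjected, 1055, 1193 and 1259 after GFP, 1561, 1519 and 1757 after nSREBP2, 993, 1115 and 1071 after ctrl sh, 1043, 951 and 953 after Lrp2 sh1, and 1288, 1001 and 1045 after Lrp2 sh2. The nSREBP2 libraries were the highest, all Lrp2 sh1 libraries lay below the uninjected ones, and the other injected groups overlapped them. Without B2m, H2-K1 and H2-D1 the sum was 699, 633 and 737 CPM uninjected, 685, 745 and 774 after GFP, 762, 733 and 943 after nSREBP2, 596, 654 and 601 after ctrl sh, 596, 542 and 542 after Lrp2 sh1, and 739, 606 and 610.3 after Lrp2 sh2. On that sum nSREBP2 2 lay within the uninjected range, nSREBP2 1 close above it and nSREBP2 3 the highest. Per kilobase of transcript, the median level over the 18 libraries was 244 CPM for B2m, 64.7 for H2-D1, 27.2 for H2-K1, 22.5 for Bst2 and 20.1 for Ifit3. It was lowest for Ifi44 at 0.641 and Zbp1 at 0.752. The highest library exceeded the lowest 8.69 times for Cxcl10, the widest span among the members, and 1.33 times for Ddx58, the narrowest.

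**Figure D1:**
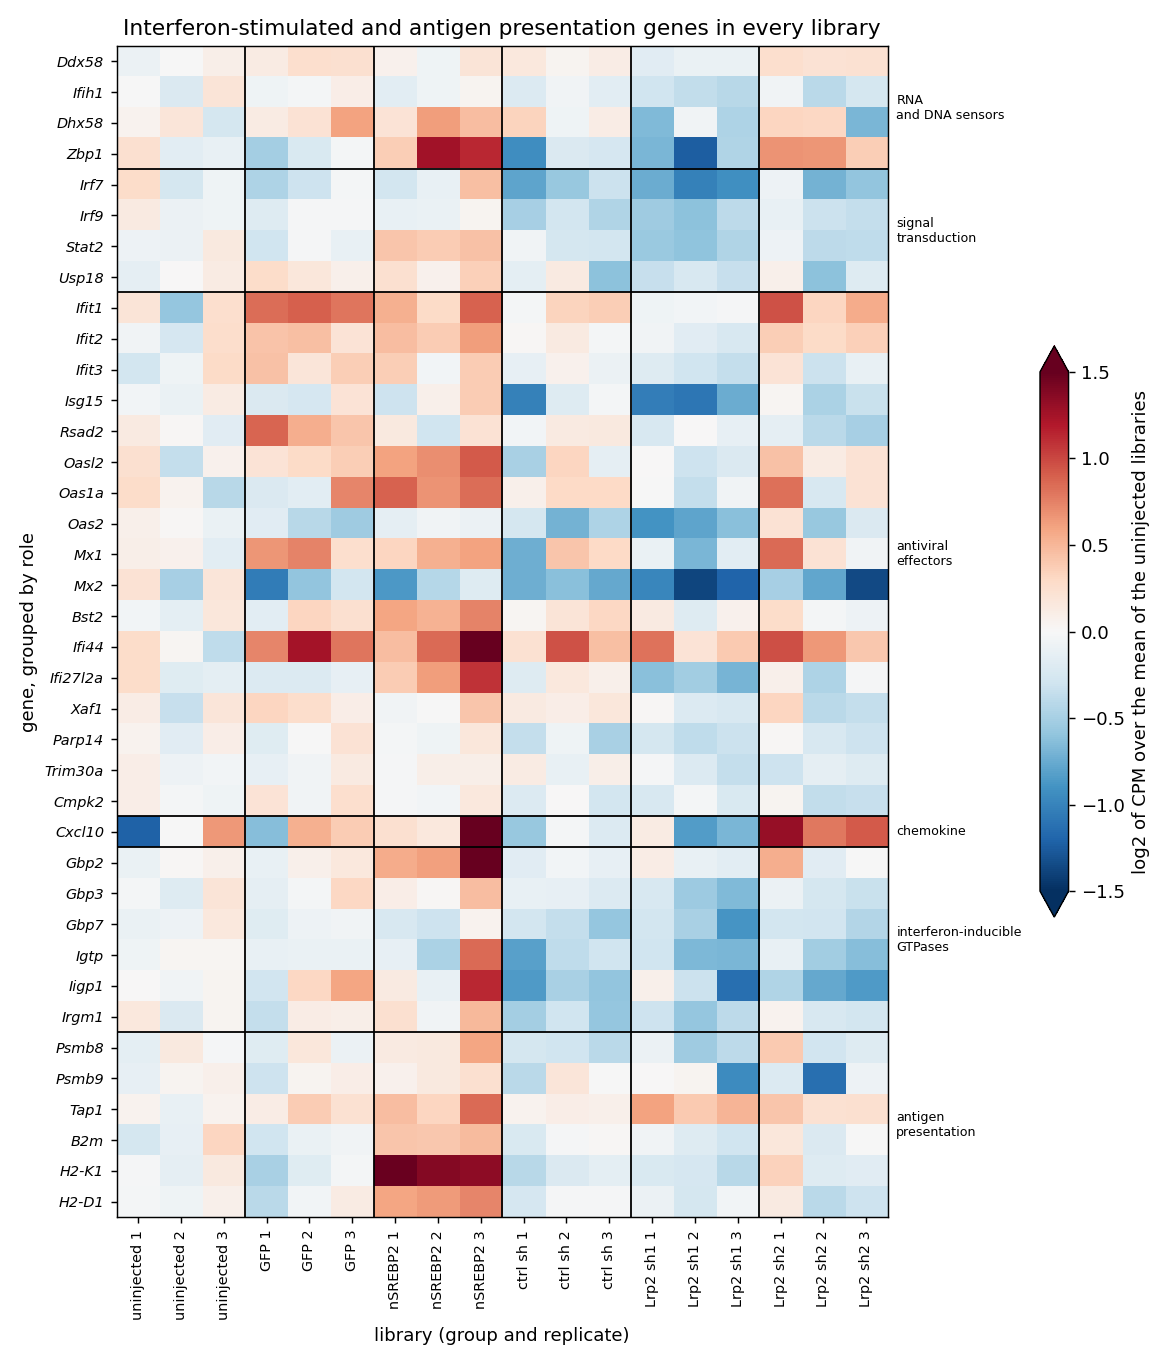
Heat map of the 38 genes, ordered by role, in the 18 libraries, ordered by group, where colour gives log2 of CPM over the uninjected mean. H2-K1 and H2-D1 were high in all nSREBP2 libraries. Cxcl10 had the widest span between libraries and Ddx58 the narrowest.

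Against uninjected eyes, the members past adjusted P were all higher after nSREBP2 and nearly all lower after Lrp2 sh1, and the GFP vector left none. After the GFP vector, 0 of 38 members were called by edgeR (Benjamini-Hochberg adjusted P under 0.05 and a change of more than 1 on the log2 scale, the rule used throughout, with changes given on that scale), where 1.41% of the 17837 genes tested were called either way. By adjusted P alone 0 members were higher and 0 lower, where 0.662% of all genes were higher and 1.82% lower. At an unadjusted P under 0.05, a cut for which no share of all genes is given here or below, edgeR had 6 members higher and 1 lower. DESeq2 had 5 members higher, 1 lower and 0 called. Their median log2 fold change in GFP versus uninjected was 0.01, beside -0.0035 over all genes, with 19 of 38 above 0. After the ctrl sh vector, 0 members were called by edgeR, where 2.39% of all genes were called either way. By adjusted P alone 0 members were higher and Iigp1 and Irf9 were lower, where 3.13% of all genes were higher and 3.37% lower. Both lost adjusted P whichever of the 6 libraries was left out. At an unadjusted P under 0.05, again with no share of all genes to set beside it, edgeR had 0 members higher and 10 lower. DESeq2 had 0 members higher, 9 lower and 0 called. The members' median in ctrl sh versus uninjected was -0.15, with 12 of 38 above 0. The comparisons of this paragraph and the next share the uninjected libraries.

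After nSREBP2, H2-K1 was the only member called, and it rose, where 10.6% of all genes were called either way. By adjusted P alone 9 members were higher and 0 lower (Bst2, Gbp2, H2-D1, H2-K1, Ifit2, Oasl2, Stat2, Tap1 and Zbp1), where 13.7% of all genes were higher and 12.4% lower. Of these 9, 5 kept adjusted P without uninjected 2, 6 without uninjected 3 or nSREBP2 3, 7 without nSREBP2 2 and 8 without uninjected 1 or nSREBP2 1. The members' median in nSREBP2 versus uninjected was 0.25, with 33 of 38 above 0, beside -0.02 over all genes. The count was 4 without nSREBP2 1 (Gbp2, H2-K1, Ifi44 and Zbp1), 2 without nSREBP2 2 (Gbp2 and H2-K1) and 2 without uninjected 1 (H2-K1 and Zbp1). After Lrp2 sh1, Mx2 was the only member called, and it fell, where 6.58% of all genes were called either way. By adjusted P alone only Tap1 was higher and 13 members were lower (Gbp3, Gbp7, H2-K1, Ifih1, Igtp, Irf7, Irf9, Irgm1, Isg15, Mx2, Oas2, Parp14 and Stat2), where 12.4% of all genes were higher and 12% lower. Of these 14, 5 kept adjusted P without Lrp2 sh1 2, 6 without Lrp2 sh1 3, 7 without uninjected 3, 8 without Lrp2 sh1 1, 10 without uninjected 1 and 13 without uninjected 2, and 9 kept it with DESeq2. Irf7, Irf9, Mx2, Stat2 and Tap1 kept it in every setting. The members' median in Lrp2 sh1 versus uninjected was -0.32, with 2 of 38 above 0, beside -0.02 over all genes. The count was 3 without uninjected 2 (Irf7, Isg15 and Mx2) and 2 without Lrp2 sh1 3 (Isg15 and Mx2). After Lrp2 sh2, 0 members were called by edgeR, where 8.04% of all genes were called either way. There, 0 were higher and Gbp7, Iigp1 and Mx2 were lower by adjusted P alone, where 11.3% of all genes were higher and 11.4% lower. Of these 3, 2 kept adjusted P without uninjected 1, uninjected 2 or Lrp2 sh2 1 and 1 without uninjected 3, Lrp2 sh2 2 or Lrp2 sh2 3. Gbp7 lost it in 10 of 12 settings, DESeq2, no filter, the replicate block, the sex term and 1 fit of all libraries among them. At an unadjusted P under 0.05, with no share of all genes to set beside it, edgeR had 7 members higher and 7 lower. DESeq2 had 4 members higher and 3 lower and called Cxcl10. Their median in Lrp2 sh2 versus uninjected was -0.15, with 14 of 38 above 0. The count was 1 without uninjected 2 or Lrp2 sh2 1 (Mx2) and 1 without uninjected 3 (Cxcl10).

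With the injected groups weighed equally against uninjected, 0 members were called by edgeR, where 5.71% of all genes were called either way. Ifi44 and Tap1 were higher and Gbp7, Irf7, Irf9 and Mx2 were lower by adjusted P alone, where 15.2% of all genes were higher and 15.7% lower. Of these 6, 4 kept adjusted P without uninjected 1 (Irf7 and Irf9 lost), 4 without uninjected 2 (Ifi44 and Tap1 lost) and 3 without uninjected 3 (Gbp7, Ifi44 and Irf7 lost), and Irf7 was lost without most of the injected libraries as well. At an unadjusted P under 0.05, with no share of all genes to set beside it, edgeR had 4 members higher and 7 lower. DESeq2 had 4 members higher, 4 lower and 0 called. The members' median was -0.03, beside -0.01 over all genes, with 18 of 38 above 0.

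Among the injected groups, 2 members were called higher in nSREBP2 versus GFP and 2 in Lrp2 sh2 versus either other hairpin. Each of these counts was near the share of all genes called. In nSREBP2 versus GFP, H2-K1 and Zbp1 were called and rose, where 6.67% of all genes were called either way. By adjusted P alone 9 members were higher (B2m, Bst2, Gbp2, H2-D1, H2-K1, Ifi27l2a, Oasl2, Stat2 and Zbp1) and Rsad2 was lower, where 12.6% of all genes were higher and 8.47% lower. Of these 10, 6 kept adjusted P with the sex term (B2m, Bst2, Oasl2 and Rsad2 lost). Oasl2 was also lost with all 18 libraries in 1 fit and no sex term. Adjusted P was kept by 4 without GFP 1, 5 without GFP 2, 7 without nSREBP2 2 and 8 without nSREBP2 1 or nSREBP2 3. The count was 1 without GFP 1 or GFP 2 (H2-K1), 3 without GFP 3 (Gbp2, H2-K1 and Zbp1) and 4 without nSREBP2 1 (Gbp2, H2-K1, Ifi27l2a and Zbp1). Without nSREBP2 2, Gbp2 was called in place of Zbp1. In Lrp2 sh1 versus ctrl sh, 0 members were called by edgeR, where 0.994% of all genes were called either way, and by adjusted P alone Tap1 was higher and Stat2 lower, where 3.06% of all genes were higher and 2.28% lower. Stat2 lost adjusted P whichever of the 6 libraries was left out, and Tap1 with the replicate block and without ctrl sh 2, ctrl sh 3, Lrp2 sh1 1 or Lrp2 sh1 3. At an unadjusted P under 0.05, with no share of all genes to set beside it, edgeR had 1 member higher and 9 lower in that comparison. DESeq2 had 1 member higher, 5 lower and 0 called. In Lrp2 sh2 versus ctrl sh, Cxcl10 and Zbp1 were called and rose, where 4.76% of all genes were called either way. With Ifit2, 3 members were higher and 0 lower by adjusted P alone, where 8.59% of all genes were higher and 9.48% lower. Ifit2 lost adjusted P in 10 of 12 settings, DESeq2, the sex term and each library left out but ctrl sh 2 among them. The count was 1 without ctrl sh 1, Lrp2 sh2 1 or Lrp2 sh2 2 (Cxcl10). In Lrp2 sh2 versus Lrp2 sh1, Cxcl10 and Zbp1 were called and rose, where 5.13% of all genes were called either way. There, 6 members were higher by adjusted P alone (Cxcl10, Ddx58, Ifit1, Ifit2, Oasl2 and Zbp1) and 0 lower, where 10.2% of all genes were higher and 12.3% lower. Of these 6, 2 kept adjusted P with the sex term (Ddx58 and Zbp1). With all 18 libraries in 1 fit and no sex term, only Oasl2 was lost. Adjusted P was kept by 5 without Lrp2 sh1 1 (Ifit1 lost) and 4 without Lrp2 sh1 2, Lrp2 sh1 3 or Lrp2 sh2 1 (Ifit1 and Oasl2 lost). The members' median was 0.17 in nSREBP2 versus GFP, -0.18 in Lrp2 sh1 versus ctrl sh, 0.10 in Lrp2 sh2 versus ctrl sh and 0.25 in Lrp2 sh2 versus Lrp2 sh1. Lrp2 sh1 and Lrp2 sh2 share the ctrl sh libraries as reference.

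**Figure D2:**
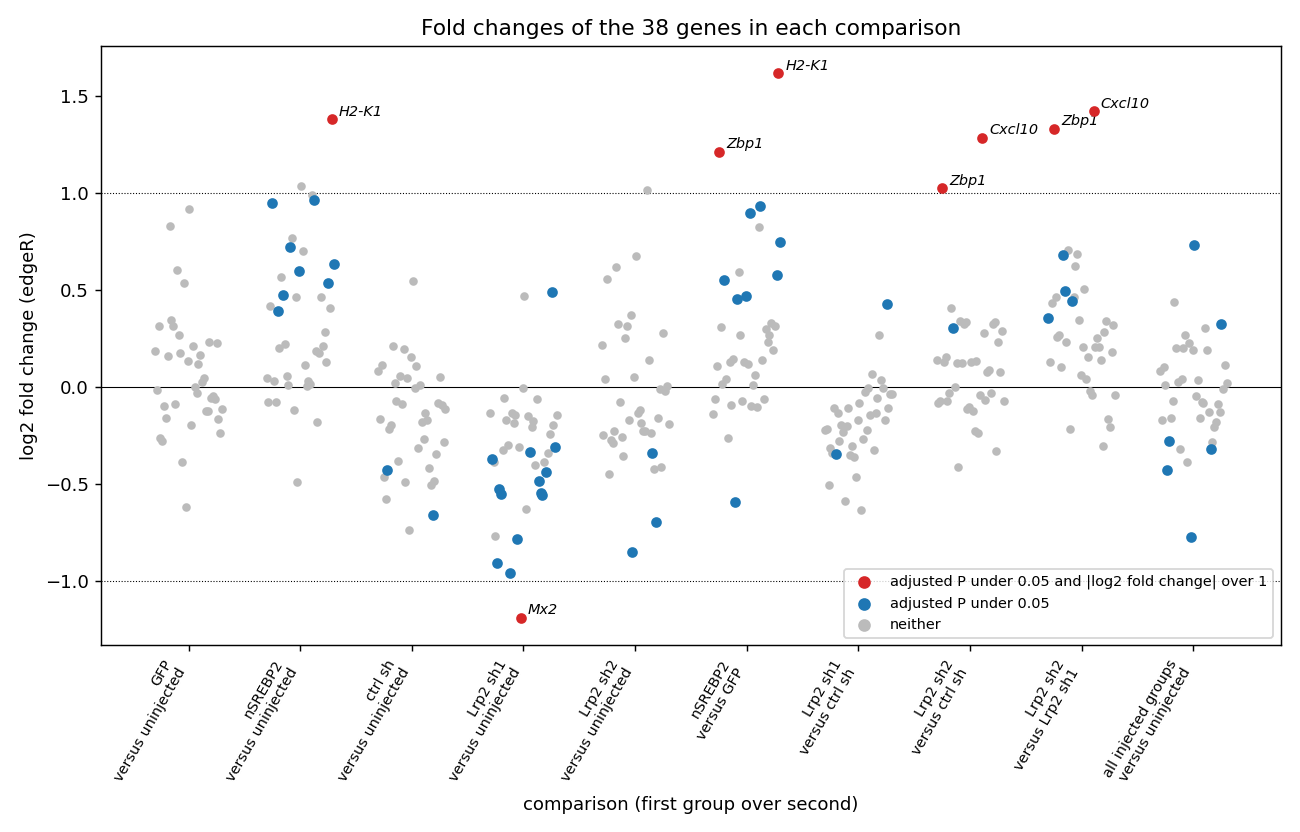
Log2 fold change (vertical axis) of each of the 38 genes, as a point, in the 10 comparisons (horizontal axis). Red points were called, blue points passed adjusted P alone and grey points passed neither. The points of GFP versus uninjected are all grey, and red points stand mainly among the nSREBP2 and Lrp2 sh2 comparisons.

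Ddx58 encodes RIG-I, which senses viral RNA in the cytoplasm. It was at 50.4, 53.2 and 57.1 CPM uninjected, 58.6, 63.6 and 63.3 after GFP, 56.1, 51.2 and 61.3 after nSREBP2, 59.9, 55 and 58 after ctrl sh, 47.7, 50.2 and 50.2 after Lrp2 sh1, and 63.6, 62.1 and 62.9 after Lrp2 sh2. No other member was as steady. The GFP libraries lay above all uninjected ones, but the change of 0.19 (SE 0.08, adjusted P 0.248) did not pass. All Lrp2 sh2 libraries lay above all Lrp2 sh1 libraries, by 0.36 (SE 0.06, adjusted P 0.00189), and that difference passed adjusted P with any library left out. The median log2 fold change of the 4 sensors against uninjected was 0.09 after GFP, 0.23 after nSREBP2, -0.04 after ctrl sh, -0.38 after Lrp2 sh1 and 0.13 after Lrp2 sh2.

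Zbp1, a sensor of Z-form nucleic acid, was at 3.43, 2.61 and 2.69 CPM uninjected, 2.04, 2.48 and 2.85 after GFP, 3.76, 6.97 and 6.4 after nSREBP2, 1.52, 2.5 and 2.44 after ctrl sh, 1.82, 1.24 and 2.13 after Lrp2 sh1, and 4.63, 4.61 and 3.77 after Lrp2 sh2. Its highest libraries were nSREBP2 2 and 3, all nSREBP2 libraries lay above the uninjected and GFP ones, and the Lrp2 sh2 libraries lay above the ctrl sh and Lrp2 sh1 ones. Against uninjected, Zbp1 after nSREBP2 was higher by adjusted P alone, by 0.95 (SE 0.29, adjusted P 0.0395). That difference was 0.92 (adjusted P 0.0956) with the replicate block, 0.87 (adjusted P 0.109) without uninjected 2, 0.90 (adjusted P 0.106) without uninjected 3, 0.77 (adjusted P 0.128) without nSREBP2 2 and 0.87 (adjusted P 0.115) without nSREBP2 3, while it was called without uninjected 1, at 1.10 (adjusted P 0.0402), and without nSREBP2 1, at 1.19 (adjusted P 0.0154). Against GFP, Zbp1 rose by 1.21 (SE 0.28, adjusted P 0.0134), a change that was 1.09 (adjusted P 0.0599) without GFP 1, 1.21 (adjusted P 0.0544) without GFP 2 and 1.03 (adjusted P 0.0537) without nSREBP2 2. In Lrp2 sh2 it rose by 1.02 (SE 0.25, adjusted P 0.0202) against ctrl sh, a change that was 1.04 (adjusted P 0.0509) with the replicate block, 0.81 (adjusted P 0.055) without ctrl sh 1, 0.97 (adjusted P 0.0602) without Lrp2 sh2 1 and 0.97 (adjusted P 0.0728) without Lrp2 sh2 2. Against Lrp2 sh1, Zbp1 in Lrp2 sh2 rose by 1.33 (SE 0.25, adjusted P 0.004), and the call held with any library left out. Against uninjected, Zbp1 in Lrp2 sh2 was not past the threshold, at 0.56 (SE 0.23, adjusted P 0.112). The identifier of Zbp1 in the table is ENSMUSG00000027514.14, at chr2:173206612-173218923 on the minus strand in GENCODE M21.

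Stat2 is a subunit of the complex that carries the type I interferon signal into the nucleus. It was at 43.6, 43.2 and 50.8 CPM uninjected, 37.4, 45.3 and 42.3 after GFP, 61.4, 59.9 and 62 after nSREBP2, 44.1, 38.2 and 37.9 after ctrl sh, 31.1, 30.1 and 33.7 after Lrp2 sh1, and 43.5, 34.9 and 35.2 after Lrp2 sh2. Every nSREBP2 library lay above every uninjected and GFP library, and every Lrp2 sh1 library lay below every uninjected and ctrl sh library. After nSREBP2, Stat2 was higher by adjusted P alone, by 0.39 (SE 0.09, adjusted P 0.0101) against uninjected and by 0.55 (SE 0.08, adjusted P 0.00106) against GFP. After Lrp2 sh1, it was lower by adjusted P alone, at -0.55 (SE 0.10, adjusted P 0.00482) against uninjected, and these differences passed with any library left out. The difference of Stat2 from ctrl sh in Lrp2 sh1, -0.34 (SE 0.09, adjusted P 0.0492), was -0.34 (adjusted P 0.0599) with DESeq2, -0.34 (adjusted P 0.116) with the replicate block, -0.34 (adjusted P 0.07) with the sex term, -0.34 (adjusted P 0.0609) with all 18 libraries in 1 fit, -0.27 (adjusted P 0.0955) without ctrl sh 1, -0.37 (adjusted P 0.0756) without ctrl sh 2, -0.38 (adjusted P 0.092) without ctrl sh 3, -0.33 (adjusted P 0.154) without Lrp2 sh1 1, -0.31 (adjusted P 0.18) without Lrp2 sh1 2 and -0.39 (adjusted P 0.0785) without Lrp2 sh1 3.

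Irf7 amplifies the production of type I interferon. It was at 15.6, 10.7 and 12.3 CPM uninjected, 9.34, 10.4 and 12.6 after GFP, 10.6, 11.9 and 17.6 after nSREBP2, 7.47, 8.67 and 10.3 after ctrl sh, 7.66, 6.36 and 6.8 after Lrp2 sh1, and 12.2, 7.88 and 8.54 after Lrp2 sh2. The Lrp2 sh1 libraries and those of ctrl sh lay below all uninjected ones. Irf7 in Lrp2 sh1 was lower than uninjected by adjusted P alone, at -0.91 (SE 0.17, adjusted P 0.0064), and was called without uninjected 2, at -1.02 (adjusted P 0.00666). After ctrl sh the difference was -0.58 (SE 0.19, adjusted P 0.0983). Irf9 binds DNA in the complex with Stat2, and its levels were 51.4, 44 and 44.8 CPM uninjected, 40.8, 46.1 and 46.3 after GFP, 43.3, 43.6 and 48.3 after nSREBP2, 33.2, 38.7 and 34.1 after ctrl sh, 32.4, 30.4 and 35.7 after Lrp2 sh1, and 43.4, 37.3 and 36.5 after Lrp2 sh2. Irf9 was lower than uninjected by adjusted P alone after Lrp2 sh1, at -0.53 (adjusted P 0.00698), with any library left out. In ctrl sh it was lower, at -0.43 (adjusted P 0.0454), which was -0.43 (adjusted P 0.118) with the replicate block, -0.34 (adjusted P 0.0922) without uninjected 1, -0.47 (adjusted P 0.0577) without uninjected 2, -0.45 (adjusted P 0.0902) without uninjected 3, -0.38 (adjusted P 0.121) without ctrl sh 1, -0.49 (adjusted P 0.0994) without ctrl sh 2 and -0.40 (adjusted P 0.16) without ctrl sh 3. Over the 4 signal transduction genes, the median against uninjected was -0.13 after GFP, 0.12 after nSREBP2, -0.32 after ctrl sh, -0.54 after Lrp2 sh1 and -0.28 after Lrp2 sh2. Irf9 and the other members with values below that fall outside the naming rule were named after their values were seen.

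Ifit1 binds viral RNA that lacks the host cap. It was at 7.76, 4.55 and 8.08 CPM uninjected, 12.1, 12.7 and 11.9 after GFP, 9.87, 8.28 and 12.5 after nSREBP2, 6.67, 8.59 and 8.77 after ctrl sh, 6.48, 6.61 and 6.72 after Lrp2 sh1, and 13.2, 8.47 and 9.96 after Lrp2 sh2. Every GFP library lay above every uninjected library, and the Lrp2 sh2 libraries lay above the uninjected and Lrp2 sh1 ones. In GFP versus uninjected, Ifit1 differed by 0.83 (SE 0.21, adjusted P 0.0813) at an unadjusted P of 0.00364, and was not called. Ifit1 in Lrp2 sh2 was higher than in Lrp2 sh1 by adjusted P alone, by 0.68 (SE 0.18, adjusted P 0.0203), which was 0.74 (adjusted P 0.0564) with the sex term, 0.66 (adjusted P 0.0673) without Lrp2 sh1 1, 0.68 (adjusted P 0.0643) without Lrp2 sh1 2, 0.69 (adjusted P 0.0553) without Lrp2 sh1 3 and 0.48 (adjusted P 0.0556) without Lrp2 sh2 1. Rsad2, which blocks viral replication, was at 17.8, 16.4 and 14.4 CPM uninjected, 29.8, 23.6 and 21.8 after GFP, 18, 13.2 and 18.8 after nSREBP2, 15.7, 17.9 and 18 after ctrl sh, 13.7, 16.3 and 15 after Lrp2 sh1, and 14.8, 12.2 and 11.5 after Lrp2 sh2. Rsad2 differed by 0.60 (SE 0.15, adjusted P 0.0694) in GFP versus uninjected, and in nSREBP2 versus GFP it was lower by adjusted P alone, at -0.59 (SE 0.16, adjusted P 0.024), which was -0.32 (adjusted P 0.363) with the sex term, -0.45 (adjusted P 0.084) without GFP 1, -0.64 (adjusted P 0.0517) without GFP 2, -0.64 (adjusted P 0.0517) without nSREBP2 1 and -0.45 (adjusted P 0.0759) without nSREBP2 2. Ifi44, an antiviral gene and the member of lowest level per kilobase, was at 3.23, 2.71 and 2.05 CPM uninjected, 4.41, 6.3 and 4.65 after GFP, 3.67, 4.79 and 8.23 after nSREBP2, 3.12, 5.15 and 3.63 after ctrl sh, 4.66, 3.06 and 3.49 after Lrp2 sh1, and 5.19, 4.19 and 3.52 after Lrp2 sh2. Ifi44 differed from uninjected by 0.91 (SE 0.26, adjusted P 0.104) after GFP and by 1.03 (SE 0.34, adjusted P 0.0531) after nSREBP2. After nSREBP2, Ifi44 was called with DESeq2, with no filter, with the sex term, with all 18 libraries in 1 fit and without nSREBP2 1.

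Isg15 is a ubiquitin-like protein that is joined to other proteins. It was at 4.44, 4.26 and 4.96 CPM uninjected, 3.91, 3.82 and 5.25 after GFP, 3.67, 4.79 and 5.94 after nSREBP2, 2.25, 3.98 and 4.47 after ctrl sh, 2.21, 2.15 and 2.72 after Lrp2 sh1, and 4.63, 3.27 and 3.6 after Lrp2 sh2. All Lrp2 sh1 libraries lay below all uninjected ones, while the other injected groups overlapped them. Isg15 in Lrp2 sh1 was lower than uninjected by adjusted P alone, at -0.96 (SE 0.22, adjusted P 0.0129). That difference was -0.91 (adjusted P 0.056) without Lrp2 sh1 1 and -0.89 (adjusted P 0.0575) without Lrp2 sh1 2, and it was called without uninjected 2, at -1.004 (adjusted P 0.0226), and without Lrp2 sh1 3, at -1.06 (adjusted P 0.0339).

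Mx2 is a gene of the dynamin-like GTPase family. It was at 17.6, 10.8 and 17.2 CPM uninjected, 7.39, 10.1 and 12.6 after GFP, 8.37, 11.3 and 13.3 after nSREBP2, 9.14, 9.84 and 8.94 after ctrl sh, 7.74, 5.87 and 6.63 after Lrp2 sh1, and 10.8, 8.89 and 5.94 after Lrp2 sh2. Uninjected 1 and 3 were the highest of all libraries, uninjected 2 lay among the injected ones, and all Lrp2 sh1 libraries lay below all uninjected ones. In Lrp2 sh1 versus uninjected, Mx2 fell by 1.19 on the log2 scale (SE 0.21, adjusted P 0.00439), from 15.2 ± 3.82 to 6.75 ± 0.943 CPM (SD, n = 3), and the call held with any library left out. In Lrp2 sh2 it was lower by adjusted P alone, at -0.85 (SE 0.25, adjusted P 0.0405). That difference was -0.72 (adjusted P 0.101) without uninjected 1, -0.75 (adjusted P 0.116) without uninjected 3, -0.88 (adjusted P 0.103) without Lrp2 sh2 2 and -0.65 (adjusted P 0.112) without Lrp2 sh2 3, and it was called without uninjected 2, at -1.05 (adjusted P 0.0196), and without Lrp2 sh2 1, at -1.04 (adjusted P 0.0408). After ctrl sh, Mx2 differed by -0.73 (SE 0.19, adjusted P 0.0579), after GFP by -0.62 (SE 0.24, adjusted P 0.205), and after nSREBP2 by -0.49 (SE 0.23, adjusted P 0.158). With the injected groups weighed equally, it was lower by adjusted P alone, at -0.77 (SE 0.18, adjusted P 0.00311), with any library left out. The identifier of Mx2 in the table is ENSMUSG00000023341.14, and M21 places the gene, under another version, at chr16:97535308-97560900 on the plus strand.

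Parp14 adds ADP-ribose to proteins and was the effector with the most reads. It was at 81.5, 69.8 and 84.2 CPM uninjected, 69, 78.4 and 91.2 after GFP, 77, 75.2 and 88.5 after nSREBP2, 61.1, 75.3 and 56.1 after ctrl sh, 65.6, 60.5 and 62.7 after Lrp2 sh1, and 79.6, 66.7 and 63.3 after Lrp2 sh2. All Lrp2 sh1 libraries lay below all uninjected ones, and the other groups overlapped them. In Lrp2 sh1 it was lower by adjusted P alone, at -0.33 (SE 0.09, adjusted P 0.0245), which was -0.36 (adjusted P 0.056) with the sex term, -0.27 (adjusted P 0.0732) without uninjected 3, -0.36 (adjusted P 0.0644) without Lrp2 sh1 1, -0.30 (adjusted P 0.112) without Lrp2 sh1 2 and -0.32 (adjusted P 0.0915) without Lrp2 sh1 3. Oasl2, a relative of the sensors of double-stranded RNA, was at 26.7, 17.7 and 23.7 CPM uninjected, 26.1, 27.8 and 29.3 after GFP, 34.4, 36.7 and 43.1 after nSREBP2, 16.2, 28.3 and 20.7 after ctrl sh, 22.8, 18.3 and 19.6 after Lrp2 sh1, and 30.7, 24.8 and 26.4 after Lrp2 sh2. Oasl2 after nSREBP2 was higher than uninjected by adjusted P alone, by 0.72 (SE 0.16, adjusted P 0.0115). Bst2, which tethers budding virus to the cell, was at 17.7, 16.4 and 20.6 CPM uninjected, 16.4, 22.9 and 21.6 after GFP, 27.5, 26.2 and 30.7 after nSREBP2, 18.6, 20.9 and 22.6 after ctrl sh, 20.1, 16 and 19.1 after Lrp2 sh1, and 22, 17.9 and 17.3 after Lrp2 sh2. Bst2 after nSREBP2 was higher than uninjected by adjusted P alone, by 0.60 (SE 0.12, adjusted P 0.00731), and like the difference in Oasl2 this passed with any library left out. Over the 17 effectors, the median against uninjected was 0.18 after GFP, 0.22 after nSREBP2, 0.01 after ctrl sh, -0.19 after Lrp2 sh1 and -0.12 after Lrp2 sh2.

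Cxcl10 draws T cells to a tissue. It was at 1.71, 3.97 and 6.25 CPM uninjected, 2.55, 5.77 and 5.18 after GFP, 4.7, 4.44 and 14.9 after nSREBP2, 2.68, 3.9 and 3.46 after ctrl sh, 4.35, 2.23 and 2.47 after Lrp2 sh1, and 9.82, 6.88 and 7.53 after Lrp2 sh2. nSREBP2 3 was the highest, and all Lrp2 sh2 libraries lay above all uninjected, ctrl sh and Lrp2 sh1 libraries. Against ctrl sh, Cxcl10 in Lrp2 sh2 rose by 1.28 (SE 0.21, adjusted P 0.00333), from 3.35 ± 0.617 to 8.08 ± 1.55 CPM (SD, n = 3). Against Lrp2 sh1 it rose by 1.42 (SE 0.26, adjusted P 0.00392). Without Lrp2 sh2 1, Cxcl10 rose by 1.11 (adjusted P 0.0125) against ctrl sh and by 1.25 (adjusted P 0.0155) against Lrp2 sh1, and the calls held with any library left out. Those changes did not pass with the sex term, at 1.13 (adjusted P 0.196) and 1.27 (adjusted P 0.138), and with all 18 libraries in 1 fit the change against ctrl sh was 1.27 (adjusted P 0.0615). Against uninjected, Cxcl10 in Lrp2 sh2 differed by 1.01 (SE 0.37, adjusted P 0.0825) and was not called, where the uninjected libraries ran from 1.71 to 6.25 CPM. The identifier of Cxcl10 is ENSMUSG00000034855.13, at chr5:92346638-92348889 on the minus strand.

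The GTPases attack the vacuoles in which microbes live. Gbp2 was at 18.3, 19.7 and 20.5 CPM uninjected, 18.1, 20.5 and 21.8 after GFP, 28.7, 30 and 57.2 after nSREBP2, 17.3, 18.9 and 18 after ctrl sh, 21.1, 18.1 and 17.4 after Lrp2 sh1, and 28.5, 17.3 and 19.3 after Lrp2 sh2. It was highest in nSREBP2 3, and the nSREBP2 libraries lay above the others. Gbp2 after nSREBP2 was higher than uninjected by adjusted P alone, by 0.96 (SE 0.25, adjusted P 0.0205), and higher than GFP by 0.93 (SE 0.24, adjusted P 0.0204). Against uninjected the difference was 0.97 (adjusted P 0.0592) without uninjected 2 and 1.002 (adjusted P 0.0515) without uninjected 3, and without nSREBP2 3 it was 0.57 (adjusted P 0.0138). It was called without nSREBP2 1, at 1.15 (adjusted P 0.0149), and without nSREBP2 2, at 1.12 (adjusted P 0.0252). Against GFP, Gbp2 was 0.86 (adjusted P 0.0868) without GFP 1 and 0.94 (adjusted P 0.0745) without GFP 2, and without nSREBP2 3 it was 0.54 (adjusted P 0.00969). It was called against GFP without GFP 3, at 1.01 (adjusted P 0.0299), without nSREBP2 1, at 1.11 (adjusted P 0.0145), and without nSREBP2 2, at 1.09 (adjusted P 0.0223). Iigp1 was at 12.8, 12.3 and 13 CPM uninjected, 10.4, 15.8 and 19.1 after GFP, 13.9, 11.8 and 27.9 after nSREBP2, 7.04, 9.06 and 8.43 after ctrl sh, 13.4, 10.2 and 5.78 after Lrp2 sh1, and 9.26, 7.46 and 7.03 after Lrp2 sh2. nSREBP2 3 was again the highest. After Lrp2 sh2, Iigp1 was lower than uninjected by adjusted P alone, at -0.70 (SE 0.15, adjusted P 0.0105). This passed with any library left out, and was -0.66 (adjusted P 0.159) with the sex term and -0.70 (adjusted P 0.102) with all 18 libraries in 1 fit. After ctrl sh, Iigp1 was lower, at -0.66 (SE 0.14, adjusted P 0.032), which was -0.67 (adjusted P 0.0867) with the replicate block, -0.70 (adjusted P 0.181) with the sex term, -0.65 (adjusted P 0.165) with all 18 libraries in 1 fit, -0.65 (adjusted P 0.0604) without uninjected 1, -0.69 (adjusted P 0.0536) without uninjected 2, -0.63 (adjusted P 0.089) without uninjected 3, -0.55 (adjusted P 0.0779) without ctrl sh 1, -0.74 (adjusted P 0.0812) without ctrl sh 2 and -0.68 (adjusted P 0.102) without ctrl sh 3. Over the 6 GTPases, the median against uninjected was -0.01 after GFP, 0.20 after nSREBP2, -0.45 after ctrl sh, -0.46 after Lrp2 sh1 and -0.29 after Lrp2 sh2.

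H2-K1 encodes a heavy chain of the class I complex. It was at 88.2, 81.3 and 98.5 CPM uninjected, 63.8, 78.9 and 87.9 after GFP, 249.8, 232 and 227 after nSREBP2, 66.8, 76.8 and 80.6 after ctrl sh, 76.2, 75.1 and 67.1 after Lrp2 sh1, and 114, 78.4 and 79.4 after Lrp2 sh2. All nSREBP2 libraries lay above all others, Lrp2 sh2 1 was the next highest, the ctrl sh and Lrp2 sh1 libraries lay below all uninjected ones, and the GFP libraries overlapped them. In nSREBP2 versus uninjected, H2-K1 rose by 1.38 (SE 0.09, adjusted P 3.23e-05), from 89.3 ± 8.69 to 236 ± 11.99 CPM (SD, n = 3). Against GFP it rose by 1.62 (SE 0.11, adjusted P 1.28e-05). With the sex term, H2-K1 rose by 1.48 (adjusted P 5.95e-06) against uninjected and by 1.77 (adjusted P 2.0e-05) against GFP, and the calls held with any library left out. In Lrp2 sh1 it was lower than uninjected by adjusted P alone, at -0.31 (SE 0.09, adjusted P 0.0357), which was -0.28 (adjusted P 0.0768) with DESeq2, -0.28 (adjusted P 0.066) with no filter on low counts, -0.31 (adjusted P 0.0587) with the replicate block, -0.37 (adjusted P 0.0677) with the sex term, -0.31 (adjusted P 0.0945) with all 18 libraries in 1 fit, -0.31 (adjusted P 0.053) without uninjected 1, -0.23 (adjusted P 0.105) without uninjected 3, -0.34 (adjusted P 0.0784) without Lrp2 sh1 1, -0.33 (adjusted P 0.0994) without Lrp2 sh1 2 and -0.24 (adjusted P 0.152) without Lrp2 sh1 3. The identifier of H2-K1 in the table is ENSMUSG00000061232.15, and M21 places the gene, under another version, at chr17:33996017-34000347 on the minus strand.

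H2-D1, the other heavy chain, was at 168, 164 and 181 CPM uninjected, 129, 165 and 186 after GFP, 258, 266 and 284 after nSREBP2, 144, 168 and 169 after ctrl sh, 161, 143 and 166 after Lrp2 sh1, and 188, 129 and 137 after Lrp2 sh2. All nSREBP2 libraries lay above all others. After nSREBP2, H2-D1 was higher by adjusted P alone, by 0.63 (SE 0.08, adjusted P 0.000736) against uninjected and by 0.75 (SE 0.12, adjusted P 0.0019) against GFP, with any library left out. B2m is the light chain shared by all class I molecules, and it was at 181, 199.8 and 273 CPM uninjected, 178, 203 and 211 after GFP, 292, 288 and 303 after nSREBP2, 187, 216 and 220.5 after ctrl sh, 209.5, 191 and 178 after Lrp2 sh1, and 246, 188 and 218 after Lrp2 sh2. The nSREBP2 libraries were the highest for B2m, with uninjected 3 next. B2m after nSREBP2 was higher than GFP by adjusted P alone, by 0.58 (SE 0.08, adjusted P 0.000646), and with the sex term it was 0.45 (adjusted P 0.137). Against uninjected, B2m was not past the threshold, at 0.41 (SE 0.14, adjusted P 0.0607).

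Tap1, which carries peptides into the endoplasmic reticulum, was at 21.6, 19.2 and 21.5 CPM uninjected, 22.5, 27.1 and 24.4 after GFP, 28.6, 26.1 and 37.4 after nSREBP2, 21.5, 22.2 and 21.9 after ctrl sh, 31.4, 27.4 and 29.6 after Lrp2 sh1, and 27.7, 24.2 and 24.4 after Lrp2 sh2. Tap1 in Lrp2 sh1 was higher than uninjected by adjusted P alone, by 0.49 (SE 0.11, adjusted P 0.0105), with any library left out. After nSREBP2, Tap1 was higher by 0.54 (SE 0.15, adjusted P 0.0249), which was 0.48 (adjusted P 0.0781) without uninjected 2, 0.56 (adjusted P 0.0551) without uninjected 3 and 0.38 (adjusted P 0.0735) without nSREBP2 3. Over the 6 antigen presentation members, the median against uninjected was -0.09 after GFP, 0.47 after nSREBP2, -0.11 after ctrl sh, -0.22 after Lrp2 sh1 and -0.02 after Lrp2 sh2. Their summed level was 468, 474 and 583 CPM uninjected, 400.4, 485 and 519 after GFP, 838, 822 and 864 after nSREBP2, 426, 492 and 500.3 after ctrl sh, 487, 443 and 446 after Lrp2 sh1, and 586, 425 and 468 after Lrp2 sh2.

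**Figure D3:**
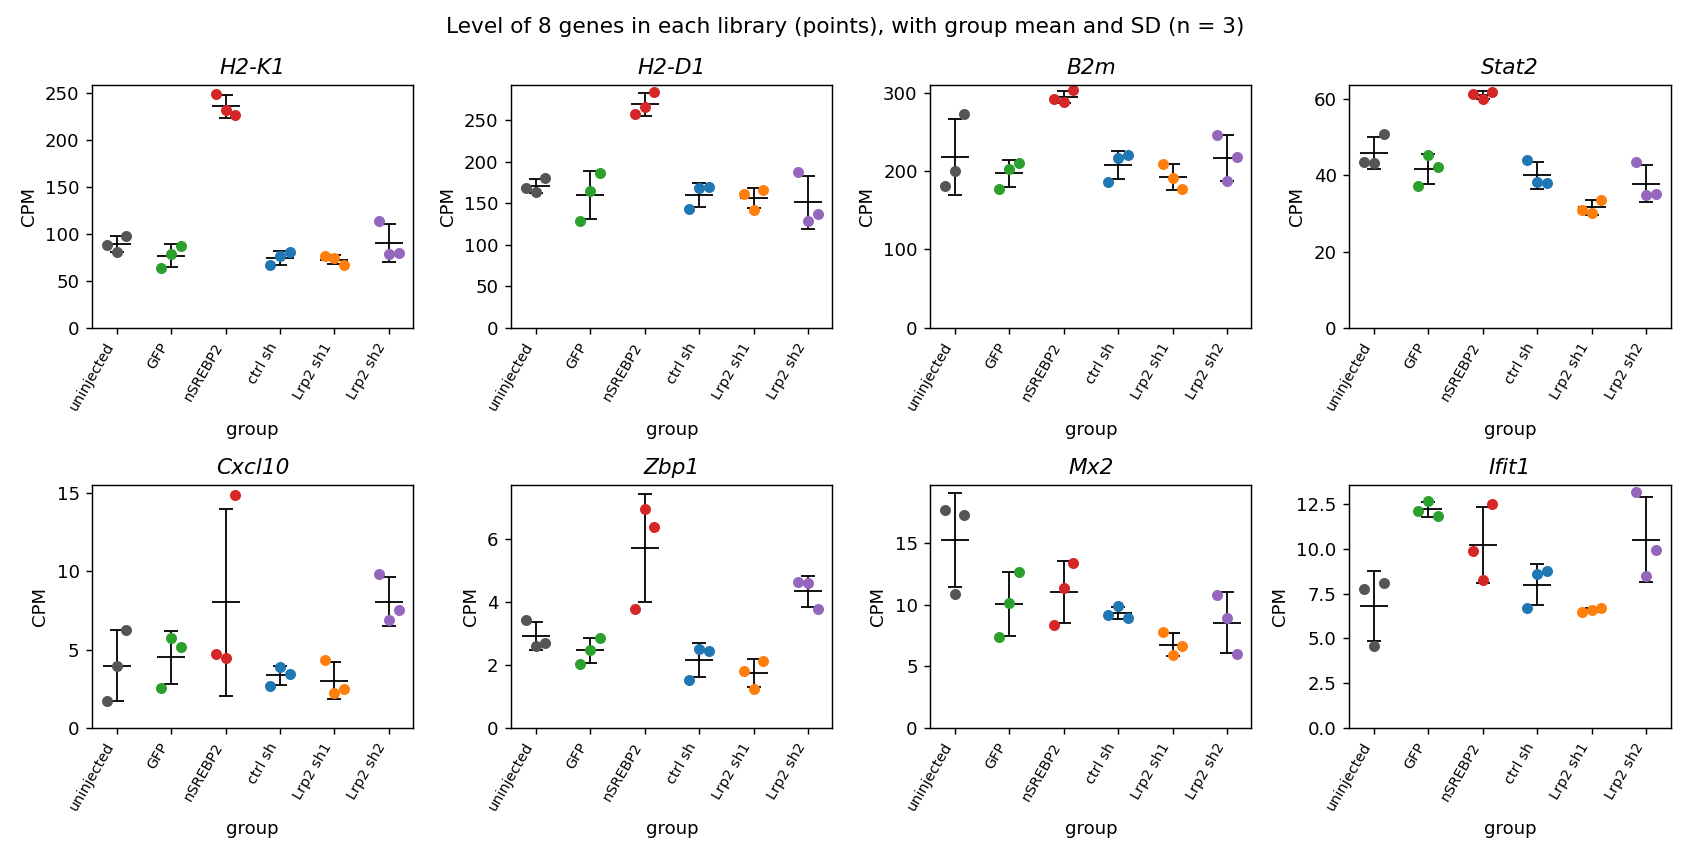
CPM (vertical axis) of 8 of the genes in the 6 groups (horizontal axis), where points are libraries, bars are means and whiskers are 1 SD, n = 3. H2-K1 and H2-D1 stand apart in nSREBP2, and the GFP and ctrl sh groups lie near the uninjected one or below it for most of these genes.

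Around the members, the rest of the pathway was read from lists. Of 10 interferon ligand genes, 3 had a count in any library, Ifnk the most abundant, and their summed level was 0.253 to 1.43 CPM. Ifnb1 had 0 counts in all 18 libraries. Ifng had 0 counts except in uninjected 1, at 0.101 CPM, nSREBP2 1, at 0.282 CPM, and nSREBP2 3, at 0.0914 CPM. Of 9 receptor and kinase genes, Jak1 the most abundant, Ifnlr1 was called in Lrp2 sh2 versus Lrp2 sh1, where it rose by 1.09 (SE 0.24, adjusted P 0.00932), and no other was called in any comparison. The change in Ifnlr1 was 0.84 (adjusted P 0.0233) without Lrp2 sh1 2. Ifnar1, a subunit of the type I receptor, was at 91.5, 105 and 103 CPM uninjected, 116, 114 and 114 after GFP, 139.7, 128 and 127 after nSREBP2, 121, 121 and 115 after ctrl sh, 124, 118 and 119 after Lrp2 sh1, and 121, 125 and 119 after Lrp2 sh2. Every injected library lay above every uninjected one. Ifnar1 was higher than uninjected by adjusted P alone after nSREBP2, by 0.37 (SE 0.08, adjusted P 0.00915), after Lrp2 sh1, by 0.25 (SE 0.07, adjusted P 0.0338), and after Lrp2 sh2, by 0.27 (SE 0.08, adjusted P 0.0388). After GFP it differed by 0.18 (SE 0.08, adjusted P 0.245) and after ctrl sh by 0.23 (SE 0.08, adjusted P 0.107). With the injected groups weighed equally, Ifnar1 was higher by adjusted P alone, by 0.26 (SE 0.05, adjusted P 0.000457).

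Of 22 transcription factor and adaptor genes, Socs3 the most abundant, 3 rose in nSREBP2 versus uninjected, Tmem173 by 1.12 (adjusted P 0.000822), Nlrc5 by 1.03 (adjusted P 0.02) and Aim2 by 1.01 (adjusted P 0.029), and none fell, beside the 10.6% of all genes called. Nlrc5 lost its call at 0.98 (adjusted P 0.0242) with the replicate block, 0.94 (adjusted P 0.0676) without uninjected 2 and 0.70 (adjusted P 0.0489) without nSREBP2 3. Aim2 lost its call at 1.01 (adjusted P 0.0775) with the replicate block, 1.03 (adjusted P 0.071) without uninjected 2, 0.84 (adjusted P 0.0899) without uninjected 3, 0.92 (adjusted P 0.0899) without nSREBP2 2 and 0.94 (adjusted P 0.0925) without nSREBP2 3. Irf1 was at 149.8, 124 and 229.6 CPM uninjected, 77.4, 114 and 133 after GFP, 137, 142 and 154 after nSREBP2, 67.3, 82.5 and 85.3 after ctrl sh, 85.1, 73.1 and 68.1 after Lrp2 sh1, and 102, 115 and 86 after Lrp2 sh2. Socs3 was at 379, 339 and 321 CPM uninjected, 111, 187 and 267 after GFP, 323, 237 and 282 after nSREBP2, 112, 153 and 148 after ctrl sh, 157, 134 and 137 after Lrp2 sh1, and 217, 229 and 128 after Lrp2 sh2. Both fell in Lrp2 sh1 versus uninjected, Irf1 at -1.17 (adjusted P 0.00393) and Socs3 at -1.30 (adjusted P 0.000109), and in ctrl sh versus uninjected, Irf1 at -1.12 (adjusted P 0.0218) and Socs3 at -1.36 (adjusted P 0.0035). Irf1 in Lrp2 sh1 was -0.87 (adjusted P 0.00274) without uninjected 3, and in ctrl sh it was -1.08 (adjusted P 0.0503) with the replicate block, -0.96 (adjusted P 0.00576) with the sex term, -0.82 (adjusted P 0.0328) without uninjected 3, -1.02 (adjusted P 0.0573) without ctrl sh 1, -1.16 (adjusted P 0.0905) without ctrl sh 2 and -1.19 (adjusted P 0.0738) without ctrl sh 3. Of the 22 genes, 1 rose in Lrp2 sh2 versus ctrl sh, beside 4.76% of all genes called. In Lrp2 sh2 versus Lrp2 sh1 2 of the 22 rose, beside 5.13%, and none fell in either comparison.

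Of 50 further interferon-stimulated genes, Ly6e the most abundant, edgeR called none against uninjected after GFP, ctrl sh or Lrp2 sh1. In nSREBP2 versus uninjected 5 of 49 tested rose and none fell, where 10.6% of all genes were called either way. They rose as follows, Slfn9 by 1.27 (adjusted P 0.00165), Oasl1 by 1.89 (adjusted P 0.00811), Ccl5 by 2.74 (adjusted P 0.00209), Ifi204 by 1.04 (adjusted P 0.0185) and Cxcl9 by 4.16 (adjusted P 0.0152). Ifi204 and Cxcl9 were named after their values were seen. Ifi204 was 0.87 (adjusted P 0.0204) with the sex term, 0.84 (adjusted P 0.0542) without uninjected 2 and 0.82 (adjusted P 0.0654) without nSREBP2 3. Cxcl9 was at 0.202, 0.774 and 0.323 CPM uninjected, 0.17, 0.355 and 0.6 after GFP, 2.82, 2.35 and 19.5 after nSREBP2, 0.29, 0.234 and 1.35 after ctrl sh, 0.632, 0.827 and 0.595 after Lrp2 sh1, and 1.2, 0.922 and 0.335 after Lrp2 sh2. Its highest library was nSREBP2 3, without which Cxcl9 rose by 2.51 (adjusted P 0.0103), and the change was 4.01 (adjusted P 0.0526) without uninjected 3. After Lrp2 sh2, 2 of 47 tested rose against uninjected and none fell, where 8.04% of all genes were called, Slfn9 by 1.04 (adjusted P 0.0101) and Oasl1 by 1.68 (adjusted P 0.0323). Slfn9 in Lrp2 sh2 was 0.94 (adjusted P 0.0022) with the sex term, 0.98 (adjusted P 0.0377) without uninjected 2 and 0.78 (adjusted P 0.025) without Lrp2 sh2 3. Oasl1 in Lrp2 sh2 was 1.53 (adjusted P 0.102) without uninjected 2, 1.40 (adjusted P 0.101) without uninjected 3, 1.33 (adjusted P 0.111) without Lrp2 sh2 1, 1.86 (adjusted P 0.0514) without Lrp2 sh2 2 and 1.79 (adjusted P 0.0611) without Lrp2 sh2 3. Their median against uninjected was 0.06 after GFP, 0.23 after nSREBP2, -0.08 after ctrl sh, -0.23 after Lrp2 sh1 and -0.02 after Lrp2 sh2. In nSREBP2 versus GFP 5 of 49 tested rose and none fell, beside 6.67% of all genes called. In Lrp2 sh2 versus ctrl sh 2 of 49 rose and 1 fell, beside 4.76%. In Lrp2 sh2 versus Lrp2 sh1 2 of 47 rose and none fell, beside 5.13%.

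Of 21 further antigen presentation genes, Calr the most abundant, 6 rose in nSREBP2 versus uninjected (Cd74, H2-Aa, H2-Ab1, H2-Eb1, H2-Q6 and H2-Q7) and none fell, beside the 10.6% of all genes called. The class II gene H2-Aa was at 22.1, 18.7 and 26.4 CPM uninjected, 12.6, 16 and 14 after GFP, 63.5, 68.9 and 60.6 after nSREBP2, 14.3, 14.4 and 11.9 after ctrl sh, 17.1, 12.4 and 6.46 after Lrp2 sh1, and 44.3, 24.4 and 24 after Lrp2 sh2. H2-Aa rose by 1.5 (SE 0.13, adjusted P 0.000105) in nSREBP2 versus uninjected, by 2.18 (SE 0.10, adjusted P 1.57e-06) in nSREBP2 versus GFP and by 1.20 (SE 0.23, adjusted P 0.00633) in Lrp2 sh2 versus ctrl sh, which was 0.84 (adjusted P 0.00399) without Lrp2 sh2 1. Against uninjected, none of these 21 genes was called after GFP, ctrl sh, Lrp2 sh1 or Lrp2 sh2. In nSREBP2 versus GFP 7 of the 21 rose, beside 6.67% of all genes called. In Lrp2 sh2, 4 rose against ctrl sh and 4 against Lrp2 sh1, beside 4.76% and 5.13%. None of the 21 fell in these comparisons.

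Markers of several other cell types were read beside these results. Of all genes, nSREBP2 had 10.6% called either way versus uninjected and 6.67% versus GFP, and Lrp2 sh1 6.58% versus uninjected. Lrp2 sh2 had 8.04% called versus uninjected and 5.13% versus Lrp2 sh1. By adjusted P alone, 12.4% were lower in nSREBP2 and 12% in Lrp2 sh1, both versus uninjected. In nSREBP2 versus GFP, 12.6% were higher and 8.47% lower. In Lrp2 sh2, 11.3% were higher and 11.4% lower versus uninjected, 8.59% and 9.48% versus ctrl sh, and 10.2% and 12.3% versus Lrp2 sh1. Macrophage and microglia markers, 15 of 15 with a count and Csf1r the most abundant, summed to 634, 655 and 599 CPM uninjected, 509.6, 538 and 594 after GFP, 1297, 1108 and 1135 after nSREBP2, 526, 553 and 538 after ctrl sh, 472, 471 and 494 after Lrp2 sh1, and 815, 601 and 589 after Lrp2 sh2. The nSREBP2 libraries were the highest and Lrp2 sh2 1 the next, and 8 of the 15 rose in nSREBP2 versus uninjected and 8 in nSREBP2 versus GFP. Against uninjected, the median of these markers was -0.26 after Lrp2 sh1, with 0 of 15 above 0 and 3 lower by adjusted P alone, and 0.24 after Lrp2 sh2, with 12 of 15 above 0. In Lrp2 sh2 versus Lrp2 sh1 their median was 0.52, with 14 of 15 above 0, 9 higher by adjusted P alone and Itgam called, and in Lrp2 sh2 versus ctrl sh it was 0.30, with 14 of 15 above 0 and 2 higher by adjusted P alone. Lymphocyte markers of T and NK cells, 13 of 13 with a count and Cd4 the most abundant, summed to 12.5, 9.87 and 10.6 CPM uninjected, 5.77, 6.3 and 6.75 after GFP, 15, 17.8 and 15.9 after nSREBP2, 6.02, 6.33 and 6.58 after ctrl sh, 5.21, 5.29 and 6.46 after Lrp2 sh1, and 12.2, 5.7 and 9.54 after Lrp2 sh2. Cd3e had 0 counts in ctrl sh 2. Of the 3 T and NK markers tested, 2 fell in Lrp2 sh1 versus uninjected and 2 rose in nSREBP2 versus GFP. B cell markers, 4 of 4 with Cd79a the most abundant, summed to 1.78 to 6.86 CPM, and neutrophil markers, 6 of 6 with S100a9 the most abundant, to 1.65 to 11.8 CPM. Of the neutrophil markers, 2 of 2 tested rose in nSREBP2 versus GFP and 1 of 3 tested fell in nSREBP2 versus uninjected. Of the 4 B cell markers, 1 fell in Lrp2 sh2 versus uninjected. Fibroblast markers, 6 of 6 with Col1a1 the most abundant, summed to 29928, 29928 and 18272 CPM uninjected, 34265, 39010 and 43622 after GFP, 86217, 70876 and 79670 after nSREBP2, 33071, 46159 and 46708 after ctrl sh, 44215, 53455 and 50922 after Lrp2 sh1, and 44270, 50495 and 42250 after Lrp2 sh2. Of these, 4 rose in nSREBP2 versus uninjected and 1 in Lrp2 sh1 versus uninjected. In nSREBP2 versus GFP all 6 were higher by adjusted P alone and 1 of them was called, and in Lrp2 sh2 versus uninjected 4 were higher by adjusted P alone. Endothelial markers, 12 of 12 with Vwf the most abundant, summed to 3448, 3445 and 2969 CPM uninjected, 2816, 2761 and 3506 after GFP, 2528, 2384 and 2270 after nSREBP2, 3066, 3094 and 2952 after ctrl sh, 2890, 2930 and 2699 after Lrp2 sh1, and 2126, 2181 and 1992 after Lrp2 sh2. Of the 12, 4 fell in nSREBP2 versus uninjected and 4 in Lrp2 sh2 versus uninjected, and by adjusted P alone 8 and 10 were lower. After Lrp2 sh1 their median was -0.27, with 1 of 12 above 0 and 6 lower by adjusted P alone, and 10 were lower by adjusted P alone in Lrp2 sh2 versus ctrl sh and 11 in Lrp2 sh2 versus Lrp2 sh1. In nSREBP2 versus GFP 8 of the 12 were lower by adjusted P alone. Erythrocyte markers, 5 of 5 with Hbb-bs the most abundant, summed to 684, 873 and 611 CPM uninjected, 469.6, 654 and 600.4 after GFP, 696, 489 and 443 after nSREBP2, 638, 805 and 702 after ctrl sh, 596, 598 and 477 after Lrp2 sh1, and 351, 429.7 and 440.5 after Lrp2 sh2, and all 5 were lower by adjusted P alone in Lrp2 sh2 versus uninjected. All 5 erythrocyte markers were also lower by adjusted P alone in Lrp2 sh2 versus ctrl sh (median -0.79), and 3 in Lrp2 sh2 versus Lrp2 sh1. Melanocyte markers, 4 of 4 with Ednrb the most abundant, summed to 645 to 1378 CPM. By adjusted P alone 3 of these 4 were lower in Lrp2 sh2 versus ctrl sh and 2 in nSREBP2 versus GFP. Which cells carried the members' transcripts was not tested, and in these tissue libraries fewer cells of a type and less RNA per cell cannot be told apart.

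The DNA in front of the members was read in RefSeq promoters of GRCm38.p6, from 250 bases before the start of transcription to 50 after it, for the 29 of 38 members that had an entry, with 34 promoters. Dhx58, Zbp1, Usp18, Oas2, Mx1, Mx2, Ifi27l2a, Parp14 and Iigp1 had none. The interferon-stimulated response element, read as GAAANNGAAA or TTTCNNTTTC, was present in 18 of the 34 promoters (52.9%), those of 17 members, beside 3.44% of all 32851. The kappa B element, read as GGGNNTTNCC or GGNAANNCCC, was present in 6 of the 34 (17.6%), those of 5 members, beside 4.79% of all. The promoters of H2-K1 overlap and hold the same match, and H2-K1 and H2-D1 share nearly the same stretch. A match describes the DNA and not its use. H2-K1, H2-D1 and B2m are shown because they were the most abundant members and stood highest after nSREBP2, Stat2 because it was higher after nSREBP2 and lower after Lrp2 sh1, and Isg15 because it holds 3 matches in a short stretch. Capitals mark the motif matches, and the sequences are 5′ to 3′ on the strand named. They are the kappa B element in H2-K1 and H2-D1, and the interferon element in Stat2 and Isg15. In B2m the interferon element comes first and the kappa B element second. Only exact matches to these patterns are marked, so a near match stays in lower case. The first match began 111 bases before the start for H2-K1, 171 for H2-D1, 139 for B2m, 222 for Stat2 and 78 for Isg15.
H2-K1, chr17:34000424-34000483, minus strand: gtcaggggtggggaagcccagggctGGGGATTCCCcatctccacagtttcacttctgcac
H2-D1, chr17:35262898-35262957, plus strand: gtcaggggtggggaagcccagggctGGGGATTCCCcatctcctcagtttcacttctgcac
B2m, chr2:122147523-122147595, plus strand: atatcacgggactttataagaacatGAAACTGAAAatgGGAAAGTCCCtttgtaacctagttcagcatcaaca
Stat2, chr10:128270251-128270310, plus strand: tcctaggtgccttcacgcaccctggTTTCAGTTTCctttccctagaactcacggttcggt
Isg15, chr4:156200850-156200921, minus strand: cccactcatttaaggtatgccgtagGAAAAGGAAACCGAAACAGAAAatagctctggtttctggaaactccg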

How the data were processed

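RNA was measured in 18 libraries. The deposited counts per gene are the authors' STAR counts against GRCm38, as their processing notes state, and the annotation and strand setting were not given in the sources used here. No gene of the table was left out (1 line of it names no gene), and 16093 genes had no count. R 4.3.3, edgeR 4.0.16 (filterByExpr, TMM, quasi-likelihood test) and DESeq2 1.42.0 were used. A gene was called at a Benjamini-Hochberg adjusted P under 0.05 over all genes tested and an absolute log2 fold change above 1. Each of the 5 injected groups was compared with uninjected, singly and weighed equally together. nSREBP2 was also compared with GFP, both Lrp2 hairpins with ctrl sh, and Lrp2 sh2 with Lrp2 sh1. Genes were named by a rule: members called, up to 12 against uninjected and 6 among injected groups, the 6 most abundant, 7 reporters (Ifit1, Isg15, Irf7, Stat2, Cxcl10, B2m, H2-K1), and per pathway list and comparison with uninjected the 3 called genes of smallest adjusted P plus Irf1, Ifnar1, Ifnb1 and Ifng. Of the list genes called among injected groups, and of the markers called, only some are named. Results that need some withheld items, 1 marker list among them, are not reported. Lists by role, pathway and cell type were run. The alternatives were DESeq2, its size factors, no filter, adjusted P alone, replicate block and leaving out each library. All libraries were also fitted at once, with and without a sex term. Replicate counts varied more than counting error, with chi-square per degree of freedom 3.30 to 21.3. The fit was tested on simulated data for GFP versus uninjected. There, edgeR recovered 34 of 100 genes changed 1.5 times and 98 of 100 changed 3 times, and DESeq2 recovered 55 and 97. Of the unchanged genes, 12 passed with edgeR and 25 with DESeq2. The members and lists were chosen with earlier results of these data known.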

Additional observations from a re-analysis of the deposited data

How the results depend on the processing

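Counts of members called are given here as main value, then alternatives. In nSREBP2 versus uninjected 1 was called, and 2 with DESeq2, 2 with no filter, 9 by adjusted P alone, 5 with the sex term, 2 with all 18 libraries in 1 fit and 1 to 4 with 1 library left out, H2-K1 always among them, where nSREBP2 1, nSREBP2 2 and uninjected 1 moved the count. In ctrl sh versus uninjected 0 were called, and 2 by adjusted P alone. In Lrp2 sh1 versus uninjected 1 was called, and 14 by adjusted P alone, 3 with the sex term and 1 to 3 with 1 library left out, where uninjected 2 and Lrp2 sh1 3 moved it and Mx2 was always called. In Lrp2 sh2 versus uninjected 0 were called, and 1 with DESeq2, 1 with no filter, 3 by adjusted P alone and 0 to 1 with 1 library left out, where uninjected 2, uninjected 3 and Lrp2 sh2 1 moved it. In nSREBP2 versus GFP 2 were called, and 10 by adjusted P alone, 5 with the sex term and 1 to 4 with 1 library left out, where each GFP library and nSREBP2 1 moved it. In Lrp2 sh1 versus ctrl sh 0 were called, and 2 by adjusted P alone. In Lrp2 sh2 versus ctrl sh 2 were called, and 1 with the replicate block, 1 with the sex term, 1 with all 18 libraries in 1 fit and 1 to 2 with 1 library left out, where ctrl sh 1, Lrp2 sh2 1 and Lrp2 sh2 2 moved it. In Lrp2 sh2 versus Lrp2 sh1 2 were called, and 6 by adjusted P alone and 1 with the sex term. With all injected groups against uninjected 0 were called, and 6 by adjusted P alone. GFP versus uninjected kept 0 in every setting, and no result was reversed. With the replicate block Zbp1 no longer passed adjusted P in Lrp2 sh2 versus ctrl sh (1.04, adjusted P 0.0509) and in nSREBP2 versus uninjected (0.92, adjusted P 0.0956). The labels pair no libraries, and in no comparison did all 3 pairs of the same number correlate above 0.1. B2m in nSREBP2 versus GFP was 0.45 (adjusted P 0.137) with the sex term.

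The counts rest on 3 libraries per group, and each library pools both eyes of 1 mouse. The nSREBP2 mice were all male by their Y-linked counts and the GFP mice female. No group was injected without a vector, and day 14 was the only day sampled, so an earlier response cannot be read from these libraries. The counts come from tissue that holds RPE, fibroblasts, blood vessels and macrophages, and the share of each cannot be told from the RNA per cell.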
